A study of Mus musculus with 6 samples.

Results

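The genes described here carry the MHC class I antigen presentation pathway, and 9 were chosen by name. They are the heavy chain genes H2-K1 and H2-D1, the light chain gene B2m, the peptide transporter genes Tap1 and Tap2, the loading gene Tapbp, the immunoproteasome genes Psmb8 and Psmb9, and the regulator Nlrc5. All 9 were found among the 24077 genes counted in single cells and among the 30828 genes counted in tissue sections.

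MHC class I molecules show peptides from inside a cell to CD8 T cells and natural killer cells, and nearly all nucleated cells make them. Proteasomes cut proteins into peptides, the Tap1 and Tap2 transporter carries these into the endoplasmic reticulum, and Tapbp (tapasin) holds the empty heavy chain and B2m beside the transporter until a peptide is bound. Interferons and Nlrc5, which acts on class I promoters, raise the transcription of the pathway.

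Outbred CD-1 mice received corn oil (CO) or diethylstilbestrol (DES), a synthetic estrogen, at 1 mg/kg/day on days 1 to 5 after birth, and uteri were taken at 12 months of age. Both groups were thus injected as neonates, and by the study's methods the CO mice were taken in estrus while the DES mice were in persistent estrus. Cells from pooled uteri gave 1 CO library of 32387 cells and 353460067 unique molecular identifiers (UMIs, counted RNA molecules) and 1 DES library of 16312 cells and 288919190 UMIs. Spatial transcriptomics covered 2 CO sections (CO A and CO B) and 2 DES sections (DES A and DES B), each from 1 mouse, with 1357 to 1834 spots and 9117099 to 12506177 UMIs a section. By the study's methods, a pathologist examined the DES sections for uterine adenocarcinoma before mice were chosen, and DES mice of this age are its model of that cancer. Exposure and cancer thus cannot be told apart in DES against CO. The study described a tissue fold in CO B and limited cluster separation in DES B.

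Some labels and cells need a remark before the levels are read. The libraries shared 180 cell barcodes, and leaving those cells out changed no direction given here. Cells labelled mesothelial carried the stromal markers Dpt, Vcan, Col6a3, Pdgfra and Dcn at a summed 17796 CPM (UMIs scaled to a total of 1e+06) in CO. In DES they summed to 19031 CPM, and both sums were above the 11622 CPM of CO cells labelled stromal. Mesothelial markers summed to 2343 CPM in CO and 2486 CPM in DES mesothelial cells, against 156 CPM in CO cells labelled stromal. When the study clustered DES mesothelial cells with CO mesothelial and stromal cells, it found no stromal-like subset among them. Cells labelled lymphocytes carried 111910 CPM of the plasma cell markers Jchain, Mzb1 and Igkc in CO and 9935 CPM in DES, so this label covered unlike mixtures. Epithelial cells carried 4745 CPM of epithelial markers in CO and 3197 CPM in DES, with lymphocyte markers at 10.96 and 4.96 CPM and myeloid markers at 45.0 and 65.4 CPM. In the same order they carried stromal markers at 232 and 92.6 CPM, plasma cell markers at 44.9 and 1.71 CPM and basal markers at 1.22 and 85.1 CPM.

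Apart from B2m on chromosome 2 and Nlrc5 on chromosome 8, the members lie within the H2 complex on chromosome 17. In the GENCODE annotation on mm10, H2-K1 spans 33996017 to 34000347 on the minus strand and H2-D1 spans 35262730 to 35267499 on the plus strand. Between them, Psmb9 (34181987 to 34187764, minus), Tap1 (34187553 to 34197225, plus), Psmb8 (34197721 to 34201454, plus) and Tap2 (34203527 to 34216321, plus) form a tight cluster, while Tapbp (33915899 to 33929292, plus) lies outside it. B2m spans 122147686 to 122153083 on the plus strand and Nlrc5 spans 94434356 to 94527272 on the plus strand. The annotated Psmb9 and Tap1 genes overlap head to head, and the sources used here do not state whether counting used strand, so reads from the overlap cannot be told apart. H2-K1 and H2-D1 resemble each other and other H2 genes, and CD-1 mice can carry alleles unlike the reference, so how their reads were shared is uncertain.

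Promoter sequence is shown for 4 members because the heavy chain genes and B2m share an arrangement of short motifs, and because Psmb9 and Tap1 share 1 stretch. RefSeq windows on build GRCm38.p6, from 250 bases before to 50 bases after the annotated start, were held for 7 of 9 members and were lacking for Tap2 and Nlrc5. The stretches below are the 180 bases before the start, 5′ to 3′ on the gene's strand, at chr17:34000348-34000527 (minus) for H2-K1, chr17:35262914-35263093 (plus) for H2-D1, chr2:122147507-122147686 (plus) for B2m and chr17:34187331-34187510 (minus) for Psmb9. Capitals mark matches to the class I kappaB enhancer GGGATTCCC, the interferon-stimulated response element GAAANNGAAA (ISRE), the X2 site TGACG and the Y box CCAAT, on either strand.
H2-K1: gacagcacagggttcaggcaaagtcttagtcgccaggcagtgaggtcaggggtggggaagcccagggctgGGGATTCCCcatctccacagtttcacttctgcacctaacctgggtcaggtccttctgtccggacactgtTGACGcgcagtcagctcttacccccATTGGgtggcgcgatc
H2-D1: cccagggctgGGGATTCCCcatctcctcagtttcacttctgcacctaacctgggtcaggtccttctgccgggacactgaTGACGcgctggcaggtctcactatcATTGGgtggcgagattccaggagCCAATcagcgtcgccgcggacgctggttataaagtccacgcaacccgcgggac
B2m: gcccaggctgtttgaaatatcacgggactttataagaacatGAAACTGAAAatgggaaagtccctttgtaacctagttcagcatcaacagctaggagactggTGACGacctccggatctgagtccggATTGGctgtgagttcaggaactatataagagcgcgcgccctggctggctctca
Psmb9: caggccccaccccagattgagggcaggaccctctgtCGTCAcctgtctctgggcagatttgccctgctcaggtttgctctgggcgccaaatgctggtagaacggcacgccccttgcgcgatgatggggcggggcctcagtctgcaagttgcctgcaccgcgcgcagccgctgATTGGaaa

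Each motif was searched on both strands, and no match overlapped a match to another motif. The Y box was found in 6 of 7 members and in 37.4% of 32851 windows of the same length, and the X2 site in 5 of 7 members and 20.8% of windows. GGGATTCCC was found only in H2-K1 and H2-D1 among the members, and in 0.353% of windows. The exact ISRE pattern GAAANNGAAA was matched in B2m alone (3.44% of windows), and the gamma-activated site TTCNNNGAA in Psmb8 alone (8.30% of windows). Only exact patterns were searched, so a window without a match, such as those of H2-K1 and H2-D1, can still hold a looser form of either element. These letters describe the windows, and a match is not evidence of a bound factor.

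In H2-K1, H2-D1 and B2m, TGACG was followed after exactly 20 bases by ATTGG, the reverse complement of the Y box. This spacing was noticed in the 3 windows and then counted: it was found in 31 of 32851 windows (0.0944%), from 27 gene symbols that include the class I gene H2-M3. The whole arrangement lay nearer the start in H2-K1, where TGACG began 41 bases before the upstream of 2 RefSeq starts (55 bases before the other), than in B2m (78 bases) or H2-D1 (101 bases). The starts of Tap1 and Psmb9 are 226 bases apart on opposite strands, and the printed Psmb9 stretch lies within the Tap1 window.

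**Figure D1:**
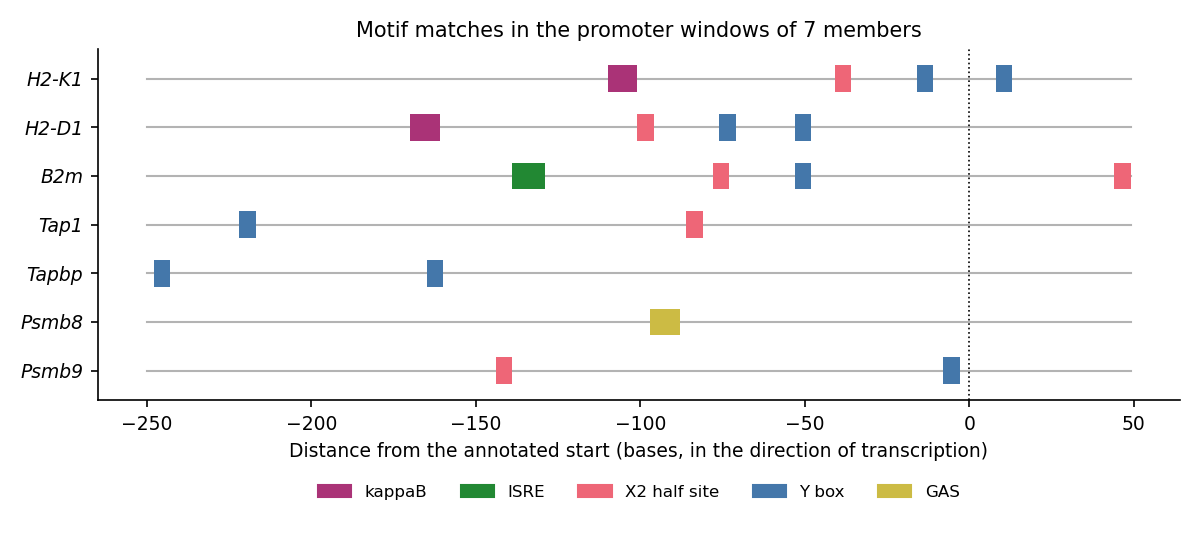
Motif matches in the promoter windows of the 7 members that had one, by distance in bases from the annotated start (dotted line). Each colored bar is 1 match, H2-K1 is drawn from the upstream of its 2 starts, and the X2 site and Y box sit 25 bases apart, first base to first base, in H2-K1, H2-D1 and B2m.

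Across the cell types of the CO library, the class I genes were highest in endothelial, lymphoid and myeloid cells and lowest in myocytes and in cells the authors named Ctla2a after a gene. H2-K1 was at 1296 CPM (exact Poisson 95% interval 1253 to 1340) in endothelial cells, 1228 CPM in myeloid cells and 1128 CPM in lymphocytes. It was at 590.3 CPM in mesothelial cells, 477 CPM in pericytes, 432 CPM in stromal cells, 361 CPM in epithelial cells, 162 CPM in myocytes and 148 CPM in Ctla2a cells. The intervals of neighbors in this order overlapped among the 3 highest types, between pericytes and stromal cells, and between the 2 lowest. There was 1 library per condition and thus no replicate, and all intervals on single-cell values cover counting error only.

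H2-D1 and B2m followed much of the same order. H2-D1 was at 1336 CPM in lymphocytes, 1230.1 CPM in myeloid cells and 1172 CPM in endothelial cells, and next came epithelial cells at 543 CPM, which could not be separated from mesothelial cells at 542 CPM or pericytes at 516 CPM. Stromal cells had 412 CPM of H2-D1, myocytes 189.7 CPM and Ctla2a cells 178 CPM. B2m, which every class I heavy chain needs to reach the surface, was at 1412 CPM in lymphocytes, 1368 CPM in myeloid cells and 1367 CPM in endothelial cells. It was at 579 CPM in pericytes, 439.8 CPM in mesothelial cells, 338 CPM in stromal cells, 298 CPM in epithelial cells, 239.8 CPM in Ctla2a cells and 172 CPM in myocytes, and only the 3 highest types overlapped.

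The transporter genes separated endothelial and immune cells from the rest less evenly. Tap1 was at 64.9 CPM in myeloid cells, 54.3 CPM in lymphocytes and 43.4 CPM in endothelial cells, whose intervals overlapped, and at 16.4 CPM in stromal cells. It ran from 6.45 CPM (Ctla2a) to 12.0 CPM (mesothelial) in the other 5 types, where all neighbors overlapped. Tap2 was highest in endothelial cells at 73.8 CPM (interval 63.8 to 84.9), above lymphocytes at 41.4 CPM, myeloid cells at 37.3 CPM and mesothelial cells at 29.7 CPM. Stromal cells had 24.8 CPM of Tap2, and it fell to 11.9 CPM in epithelial cells, the lowest type. Tapbp differed from the other members in being highest in mesothelial cells, at 288 CPM against 201 CPM in myeloid cells, 172 CPM in endothelial cells, 171 CPM in lymphocytes, 124 CPM in epithelial cells, 109 CPM in myocytes, 83.2 CPM in stromal cells, 70.9 CPM in pericytes and 50.2 CPM in Ctla2a cells.

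Psmb8 and Psmb9 replace catalytic subunits of the standard proteasome to form the immunoproteasome. Psmb8 was at 287 CPM in lymphocytes, 227 CPM in endothelial cells and 226 CPM in myeloid cells, then at 90.0 CPM in epithelial cells, 74.5 CPM in stromal cells, 70.9 CPM in pericytes, 45.9 CPM in mesothelial cells, 42.3 CPM in Ctla2a cells and 21.0 CPM in myocytes. Psmb9 was at 113 CPM in lymphocytes, 101 CPM in myeloid cells and 94.7 CPM in endothelial cells, and mesothelial cells followed at 40.8 CPM, ahead of epithelial cells at 24.8 CPM. It ran from 8.96 to 19.9 CPM in the other 4 types. Epithelial cells thus ranked above mesothelial cells for Psmb8 and below them for Psmb9, with intervals that did not overlap in either case.

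Nlrc5, the transactivator, was the least counted member. Endothelial cells had 30 UMIs (11.4 CPM, interval 7.70 to 16.3), lymphocytes 25 UMIs (11.1 CPM), stromal cells 45 UMIs (3.83 CPM), mesothelial cells 98 UMIs (1.18 CPM) and epithelial cells 46 UMIs (0.584 CPM). Pericytes (4 UMIs), myeloid cells (5 UMIs), myocytes (1 UMI) and Ctla2a cells (1 UMI) had too few for an order to be read.

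In the DES library 5 labelled cell types had at least 50 cells, and basal epithelial cells, defined by Krt14 and Trp63 counts that each exceeded 1 UMI, are given apart. Endothelial, stromal, pericyte and muscle cells were not among these types. H2-K1 was at 2253 CPM in myeloid cells, 1818 CPM in the authors' Lyz2-high myeloid group, 1436 CPM in lymphocytes, 1016 CPM in mesothelial cells, 763 CPM in basal cells and 659.5 CPM in the epithelial cells of the authors' clusters, with no overlap between neighbors. H2-D1 (3668 to 531 CPM) and B2m (2618 to 519.8 CPM) were highest in the Lyz2-high group, with myeloid cells next at 3154 and 2424 CPM, and from there the order was that of H2-K1, again with no overlap.

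The Lyz2-high myeloid group held an unlike mixture of members. Its H2-D1 and B2m levels were the highest in either library, yet its Tap1 was at 13.9 CPM (interval 9.45 to 19.8) against 47.1 CPM in DES myeloid cells, and its Psmb8 was at 178 CPM against 333 CPM. Psmb9 in the same 2 groups was at 97.8 and 108 CPM, with overlapping intervals. Basal cells had more H2-K1, H2-D1, B2m and Tap2 than the clustered DES epithelial cells and less Tapbp (98.8 against 122 CPM), Psmb8 (135 against 175 CPM) and Psmb9 (40.9 against 51.2 CPM), and the intervals did not overlap for any of these 7.

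**Figure D2:**
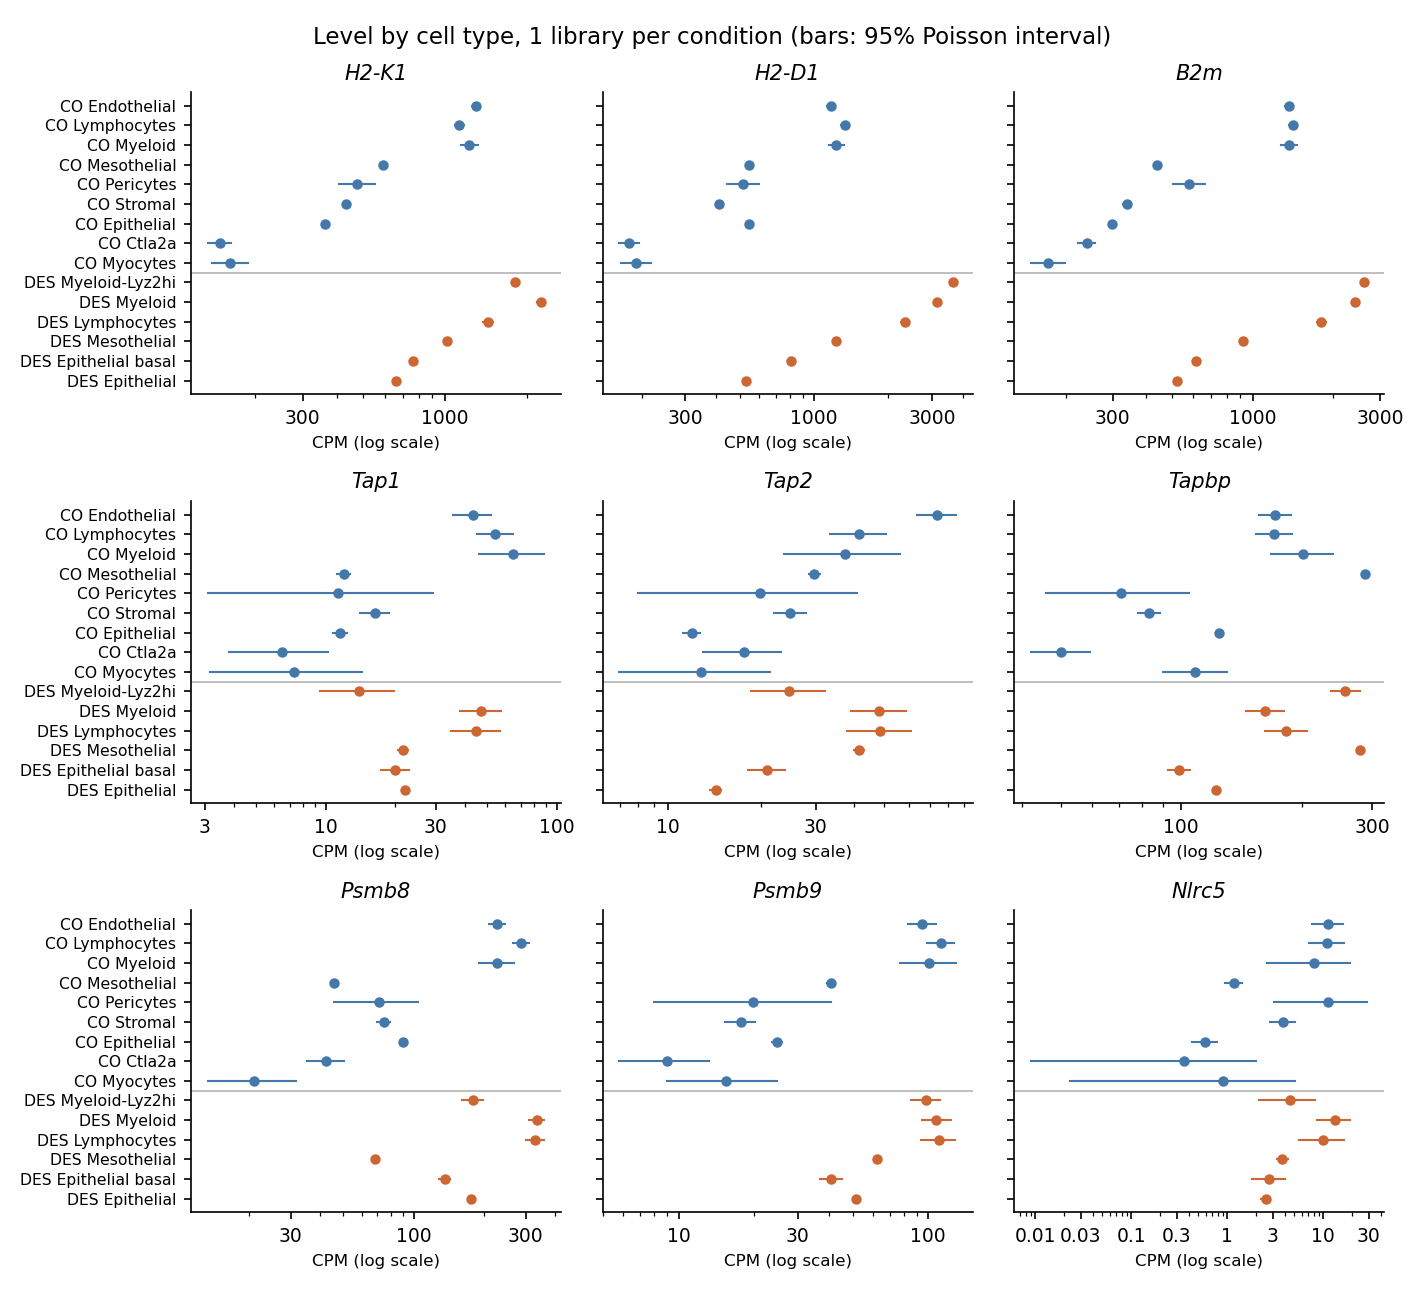
Level of each member in CPM (log scale) by cell type, in the CO library (blue, above the line) and the DES library (orange). Points are summed UMIs over cells scaled to CPM and bars are exact Poisson 95% intervals; the CO endothelial, lymphocyte and myeloid points lie to the right of the other CO points for every member but Tapbp and Nlrc5.

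The first question was how epithelial cells of the DES library differ from those of the CO library. Most members were higher in DES epithelial cells (4608 cells in the authors' clusters) than in CO epithelial cells (2583 cells), with H2-D1 and Tapbp as exceptions. In the study's joint map CO and DES epithelial cells hardly overlapped, so the ratios compare whole epithelial populations and not matched subtypes. H2-K1 was at 361 CPM in CO and 659.5 CPM in DES, a ratio of 1.83 (exact 95% interval 1.80 to 1.85), and B2m was at 298 and 519.8 CPM, a ratio of 1.75 (1.72 to 1.77). H2-D1 was at 543 and 531 CPM, a ratio of 0.978 (0.967 to 0.989), so that the 2 heavy chain genes parted. The side of 1 on which H2-D1 fell depended on the scaling, since its ratio was 1.08 as a mean per cell and 1.01 without the 20 most abundant genes or with basal cells kept in.

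The same split ran through the peptide supply. Psmb8 was at 90.0 CPM in CO and 175 CPM in DES (ratio 1.94, 1.89 to 1.996) and Psmb9 at 24.8 and 51.2 CPM (2.06, 1.96 to 2.17). Tap1 was at 11.5 and 22.2 CPM (1.92, 1.78 to 2.07), its partner Tap2 at 11.9 and 14.3 CPM (1.197, 1.11 to 1.29) and Tapbp at 124 and 122 CPM (0.980, 0.957 to 1.00). The median ratio of the members was 1.83, against 0.982 over all genes that reached 50 CPM in one library or the other. Of the 6 members with that level, 1 (Psmb9) was at least 2-fold higher in DES, beside 4.58% of all such genes that were 2-fold higher and 9.96% that were 2-fold lower.

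Nlrc5 had the largest ratio, from 46 UMIs (0.584 CPM) in CO and 414 UMIs (2.52 CPM) in DES (4.32, 3.18 to 5.998), at levels below the 50 CPM used for the background. The leukocyte gene Ptprc was at 9.71 CPM in CO and 4.44 CPM in DES in the same cells. In CO the 6 lymphocyte markers, Ptprc among them, summed to 46.2 CPM in gland clusters and 6.62 CPM in luminal clusters, so they were not spread evenly. Cd74, the class II chaperone, chosen after its values were seen, was at 28.8 CPM in CO and 541 CPM in DES epithelial cells. The part of other cells' RNA in these ratios was not tested beyond the marker sums given above.

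Shares of cells with a UMI were compared after thinning every cell to 3000 UMIs, which left out 21 CO and 49 DES cells. H2-K1 was detected in 61.5% of CO cells (Clopper-Pearson 95% interval 59.6 to 63.4%) and 76.3% of DES cells (75.1 to 77.6%), and B2m in 54.5% and 64.6%. H2-D1 was detected in 76.9% and 75.7%, with overlapping intervals. Psmb8 was detected in 21.7% and 39.9%, Psmb9 in 6.09% and 13.6%, Tap1 in 2.65% and 7.17%, Tap2 in 3.16% and 4.85%, Tapbp in 30.6% and 32.2%, and Nlrc5 in 0.195% and 0.746%. The share was higher in DES for 8 of 9 members, although the intervals of Tapbp overlapped as well. How many of all genes had a higher share in DES was not computed, so this count is not read as a result about the members. Before thinning the same shares were 98.1% and 99.0% for H2-K1 and 76.1% and 91.0% for Psmb8. No cell type here should lack class I, so the members' own background could not be measured. Ptprc, a leukocyte gene, was detected in 3.28% of CO and 1.25% of DES epithelial cells, and the shares of Nlrc5 and the CO shares of Tap1 and Tap2 were no higher than that. The lymphocyte markers were uneven between gland and luminal cells of CO, as given above, so the Ptprc share is not a measured background.

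Of the 8 other peptide supply and loading genes, 4 had ratios with intervals above 1 and 4 below, and their median was 0.992. Psmb10, the third immunoproteasome subunit, had a ratio of 1.58 (54.0 to 85.3 CPM), and Psme1, a proteasome activator, 1.49 (215 to 321 CPM). The chaperones of the loading complex went the other way: Calr (calreticulin) had a ratio of 0.339 (1247 to 422 CPM), Canx (calnexin) 0.564 and Pdia3 0.617. Of the standard subunits that the immunoproteasome replaces, Psmb5 had a ratio of 0.660, Psmb6 of 1.15 and Psmb7 of 0.853.

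None of the 12 other class I genes counted reached 50 CPM in epithelial cells, and the median ratio was 1.19 over the 11 with more than 3 UMIs in a library. H2-M3 was at 3.97 CPM in CO and 8.35 CPM in DES (2.10) and Cd1d1, which shows lipids, at 0.939 and 5.93 CPM (6.31), and H2-M2, with 1 and 26 UMIs, was the third past 2-fold higher. H2-Q10 was past 2-fold lower (1.61 to 0.652 CPM, 0.405), and H2-T24, with 0 and 1 UMI, gave no ratio. Among 17 transcriptional regulators none was 2-fold higher and 2 were 2-fold lower, namely Irf1 (69.0 to 33.8 CPM, 0.490) and Stat2 (20.04 to 9.22 CPM, 0.460), both carriers of interferon signals, and the median was 0.916. Among all genes that reached 50 CPM in CO or DES, 4.58% were 2-fold higher and 9.96% lower. Of the regulators 4 reached that level, with Irf1 but not Stat2 among them. The share thus does not cover all 17, and 2 lower of 17 is not read as a result about the regulators. The class I genes and the ligands all lay under that level, where no background share was computed. Among 7 interferon receptors and kinases none passed 2-fold (median 0.942). Ifne, the interferon made by uterine epithelium, was at 13.4 and 10.8 CPM (0.808). Of the 3 ligands with a ratio 2 were past 2-fold higher from few counts, Ifnk with 5 UMIs in CO and 76 in DES (7.30, 2.995 to 23.1) and Ifng with 1 and 5 UMIs (2.40, 0.269 to 113.6), and the median was 2.40.

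Cells labelled mesothelial gave the second contrast with deep counts, from 6866 CO and 3837 DES cells. H2-K1 was at 590.3 CPM in CO and 1016 CPM in DES (ratio 1.72, 1.70 to 1.74), B2m at 439.8 and 917 CPM (2.09, 2.06 to 2.11) and H2-D1 at 542 and 1220 CPM (2.25, 2.23 to 2.28). H2-D1 was thus higher in DES mesothelial cells, whereas its ratio in epithelial cells stayed between 0.978 and 1.08 over the settings tried. Tap1 (1.81), Tap2 (1.40), Psmb8 (1.49), Psmb9 (1.53) and Nlrc5 (3.20, from 98 and 244 UMIs) had intervals above 1, and Tapbp (0.968, 0.949 to 0.987) below. The median of the members was 1.72 against 0.969 over all genes, and 2 of the 6 members with at least 50 CPM passed 2-fold, beside 1.61% of all genes higher and 2.39% lower.

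In the rarer immune cells the counts allowed less. In myeloid cells (67 CO, 228 DES cells) H2-D1 was at 1230.1 CPM in CO and 3154 CPM in DES (2.56, 2.38 to 2.77), H2-K1 at 1228 and 2253 CPM (1.83) and B2m at 1368 and 2424 CPM (1.77), while the intervals of Tap1 (0.725), Tap2 (1.29), Psmb9 (1.07) and Nlrc5 (1.63) held 1. Psmb8 was at 226 and 333 CPM (1.48, 1.23 to 1.79), and Tapbp had a ratio of 0.807. The members' median was 1.48 against 0.808 over all genes, with 1 of 7 members at 50 CPM past 2-fold, beside 4.85% of genes higher and 15.6% lower. CO myeloid cells carried 4348 CPM of stromal markers and DES myeloid cells 215 CPM, whose part in these ratios was not tested. The DES side leaves out the 136 cells of the Lyz2-high group, which held 2227914 UMIs against 2039522 UMIs in DES myeloid cells. As given above, that group had less Tap1 and Psmb8 and more H2-D1 and B2m than DES myeloid cells, so these ratios hold for this label only.

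In cells labelled lymphocytes (423 CO, 239 DES cells) the members' median ratio was 1.14 and that of all genes 1.17. H2-D1 (1.74), B2m (1.28), H2-K1 (1.27) and Psmb8 (1.14) had intervals above 1 and the other 5 members had intervals that held 1. None of the 7 members at 50 CPM passed 2-fold, beside 6.08% of genes higher and 3.34% lower. Plasma cell markers under this label were lower in DES, as given above, and myeloid markers were higher (3431 CPM in CO and 8886 CPM in DES), and their part was not tested.

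**Figure D3:**
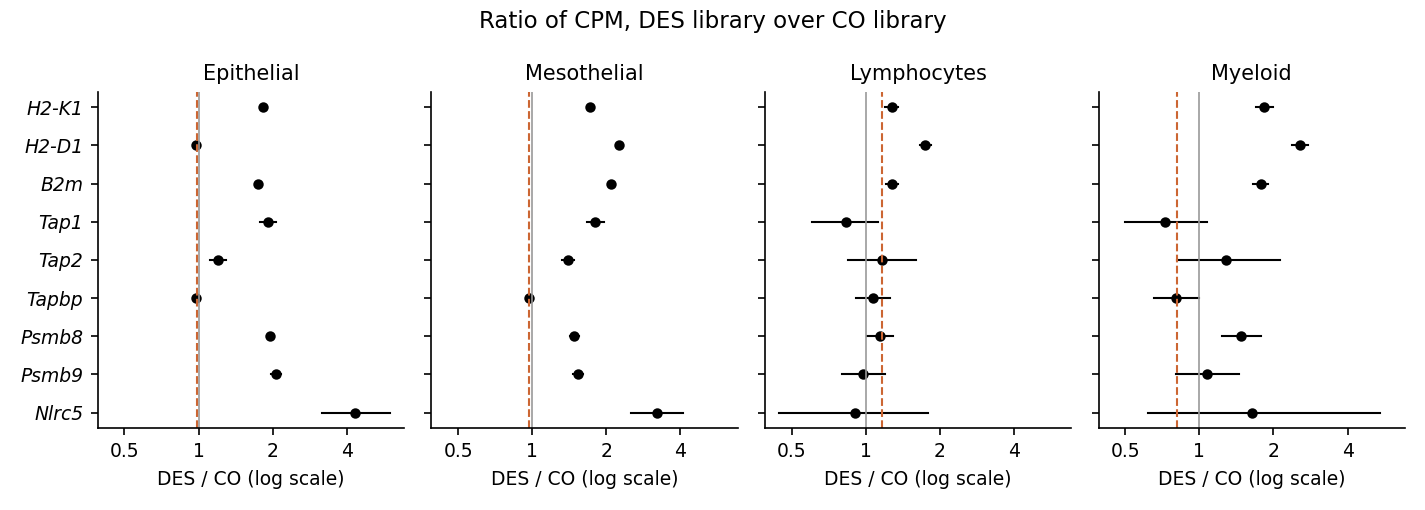
Ratio of CPM in the DES library over the CO library (log scale) for each member in 4 cell types, with exact 95% intervals. The gray line is a ratio of 1 and the dashed line the median of all genes at 50 CPM or more; H2-D1 lies near 1 in epithelial cells and above 2 in mesothelial and myeloid cells.

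The members varied among epithelial clusters, which the authors had formed from these counts, so these levels are a description only. In CO, cluster 5 (168 cells, in the luminal epithelium) had the highest level of 8 of the 9 members. How many of all genes peaked in this cluster was not computed, so the count is not read as a result about the members. H2-K1 ran from 232 CPM (cluster 13) to 623 CPM (cluster 5) with a median of 339 CPM over 15 clusters, H2-D1 from 289.7 to 842 CPM and B2m from 137 to 645 CPM. Tapbp was the exception, with 169.6 CPM in cluster 7 and 151 CPM in cluster 5. Cd74 was at 150.3 CPM in cluster 5 and at 57.4 CPM or less in every other CO cluster, while the myeloid marker sum there was 57.7 CPM, within the range of 20.9 to 85.3 CPM over CO clusters.

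Gland cells of CO had less of 7 members than luminal cells, by the most for Psmb8, Psmb9 and Tap1, while the intervals of H2-K1 and Nlrc5 overlapped. The share of all genes lower in gland cells was not computed, so this count is likewise not read as a result about the members. Over all gland cells Psmb8 was at 26.1 CPM against 98.0 CPM in luminal cells, Psmb9 at 9.64 against 26.8 CPM, Tap1 at 4.71 against 12.4 CPM and Tapbp at 80.0 against 130.1 CPM. H2-K1 was at 352 and 363 CPM, H2-D1 at 433 and 560.3 CPM, B2m at 243 and 307 CPM and Tap2 at 7.58 and 12.6 CPM. Gland cluster 13 had the lowest H2-K1, H2-D1 and B2m of all CO clusters, and gland cluster 3 had the lowest Psmb8 (21.3 CPM), Psmb9 (7.37 CPM), Tap1 (3.07 CPM) and Tapbp (79.0 CPM).

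In DES epithelial cells the clusters spread more widely for H2-K1 and B2m and less for Psmb8, Psmb9 and Tap1. H2-K1 ran from 297 CPM (cluster 8) to 1332 CPM (cluster 15) over 16 clusters, with a median of 603 CPM, and B2m from 140.1 to 961 CPM in the same clusters. Psmb8 ran from 79.8 CPM (cluster 8) to 273 CPM (cluster 5) and Psmb9 from 23.7 CPM (cluster 11) to 108 CPM (cluster 5), where cluster 5 is the one the study proposed as cancer cells. Tap1 was highest in cluster 1 (31.4 CPM), Tap2 (24.1 CPM) and Tapbp (157 CPM) in cluster 5, and Nlrc5 in cluster 15 (10.6 CPM). Clusters 8, 4, 14 and 11 were low on average over the 9 members. Cd74 was at 699 to 1628 CPM in the 7 DES clusters where the members' mean z-score was above 0 (1, 2, 5, 6, 7, 9 and 15) and at 32.6 to 239.8 CPM in the other 9.

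Pairs of members were correlated over the clusters of a library (log2(CPM + 1)), which share that library and differ in depth, as a description. Over 15 CO clusters Pearson's r had a median of 0.480 (-0.145 to 0.9503), and over 16 DES clusters a median of 0.687 (0.468 to 0.959). The closest pair was Psmb8 and Psmb9 in CO (0.9503) and H2-K1 and B2m in DES (0.959). The genes most like the mean of the members were Cmah (0.929), Srgn, Sec1, Tmem41a and Trim30a over CO clusters and Gbp2 (0.941), Tax1bp3, Atp6v0b, Muc1 and Cfb over DES clusters. Over 9 CO cell types they were H2-Q6 (0.985), H2-Q7, Sp100, Naa60 and Coq10b, and over the 5 DES cell types Ugcg (0.999), Csf1r, Adcy7, Slfn8 and Ppp1r18, where so few points make high values common.

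**Figure D4:**
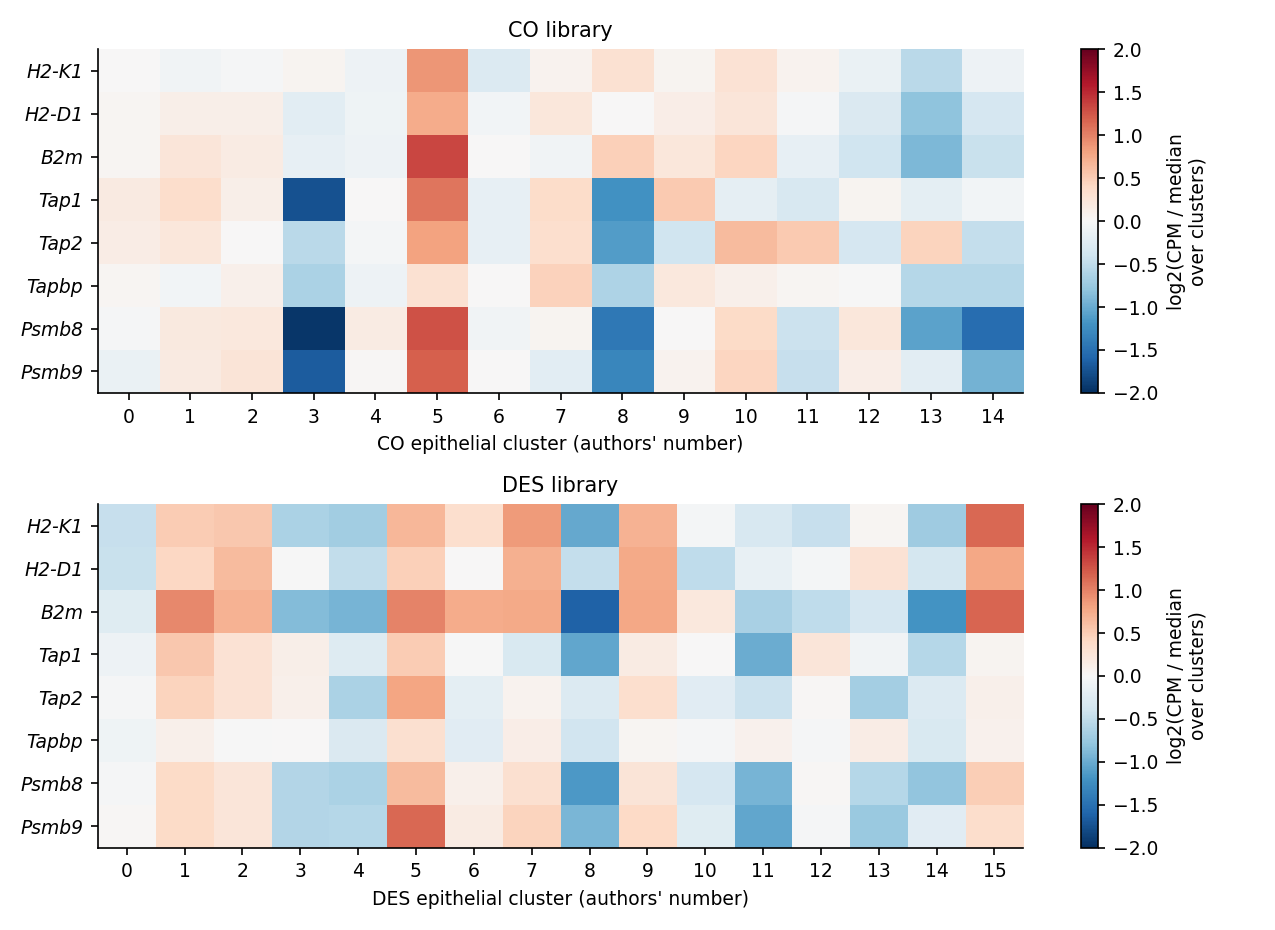
Level of 8 members in each epithelial cluster of the CO library (top) and DES library (bottom), as log2 of CPM over the gene's median across clusters (color, cut at 2). CO cluster 5 is red for all 8 genes and CO clusters 3 and 8 are blue for Tap1, Psmb8 and Psmb9, while DES cluster 8 is blue throughout.

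The tissue sections were then used to ask whether DES mice differ from CO mice, with the section as the replicate. Over all spots H2-K1 was at 707, 580.1, 588 and 2131 CPM, here and below in the order CO A, CO B, DES A, DES B. DES B was high and DES A lay between the CO sections, so the groups overlapped. B2m was at 877, 791, 511 and 2204 CPM and H2-D1 at 879.6, 1139, 638 and 1519 CPM, with DES A the lowest and DES B the highest section for both genes.

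Tap1 and Nlrc5 overlapped between the groups as well, and 4 members did not. Tap1 was at 46.6, 58.3, 49.4 and 118.8 CPM, and Nlrc5 at 12.5, 12.2, 5.81 and 27.0 CPM. In contrast Psmb9 (38.1 and 46.9 against 58.5 and 157 CPM), Psmb8 (123.9 and 124.4 against 140.1 and 352 CPM), Tap2 (31.3 and 44.5 against 60.2 and 92.7 CPM) and Tapbp (202 and 199.1 against 209.5 and 280.3 CPM) were higher in both DES sections than in both CO sections. These 4 of 9 members stood beside 43.8% of all genes, so the share was near the background. CPM leave out the TMM scaling factors of the tests below, which were 0.915 and 0.946 in CO and 1.10 and 1.05 in DES. Those factors lower DES relative to CO. Narrow gaps in CPM, as for Tapbp and Psmb8 in DES A, thus need not hold after TMM scaling, and the background share is by CPM too. Over all spots the DES sections also held fewer muscle markers (3077 and 3458 against 13345 and 14168 CPM) and stromal markers (1139.95 and 762 against 2452 and 2453 CPM) and more basal markers (9526 and 5644 against 3.36 and 159.7 CPM). Endothelial (46.9 and 55.8 against 64.5 and 103.5 CPM) and pericyte markers (139 and 123 against 186 and 245 CPM) were lower too. Epithelial markers were higher (3048 and 3283 against 2938 and 1824 CPM). Of immune cells they held more plasma cell (3250 and 6098 against 225 and 474 CPM), myeloid (2060 and 1153 against 334.0 and 677 CPM) and lymphocyte markers (40.7 and 50.1 against 18.9 and 28.2 CPM), and the part of these cells in the members' levels was not tested. A spot covers several cells, so fewer cells of a type and less RNA per cell cannot be told apart in any value of a section.

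None of the 9 members was called between DES and CO over all spots (edgeR quasi-likelihood test, Benjamini-Hochberg adjusted p under 0.05), beside 5.3% of 14098 genes. The largest log2 fold changes were 1.15 (SE 0.50) for Psmb9 with an adjusted p of 0.248, 0.89 (SE 0.63) for H2-K1 (adjusted p = 0.460 by edgeR) and 0.82 (SE 0.31) for Tap2 (adjusted p = 0.194 by edgeR). Tap2 alone had an unadjusted p under 0.05, and DESeq2 called none either. The members' median was 0.52 on the log2 scale against -0.0052 over all genes. Without DES B the values of H2-K1 (-0.39), B2m (-0.96), Tap1 (-0.34), Tapbp (-0.19), Psmb8 (-0.083) and Nlrc5 (-1.34) were below 0, and without DES A or without CO B that of H2-D1 was above 0 (0.41 and 0.074).

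The distance between the 2 DES sections was itself large for these genes. DES B was at least 2-fold above DES A for 7 of 9 members over all spots, beside 2.29% of genes, and the median ratio was 2.51 against 0.955 over all genes. In epithelium-rich spots it was 7 of 9 (median 2.45, beside 2.1% of genes), in muscle-rich spots 5 of 9 (median 2.57, beside 4.72%) and in stromal clusters 4 of 9 (median 1.92, beside 4.23%). Between CO B and CO A no member passed 2-fold over all spots, beside 10.7% of genes, and the ratios ran from 0.820 to 1.42. None did in epithelium-rich spots (10.4% of genes) or stromal clusters (9.66%), while in muscle-rich spots H2-D1 (2.26) and Tap2 (2.05) did, beside 6.72% of genes. Over all spots DES B also had more Cd74 (2317 against 872 CPM) and plasma cell markers (6098 against 3250 CPM) than DES A but fewer myeloid markers (1153 against 2060 CPM), and with 1 section each their part was not tested.

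**Figure D5:**
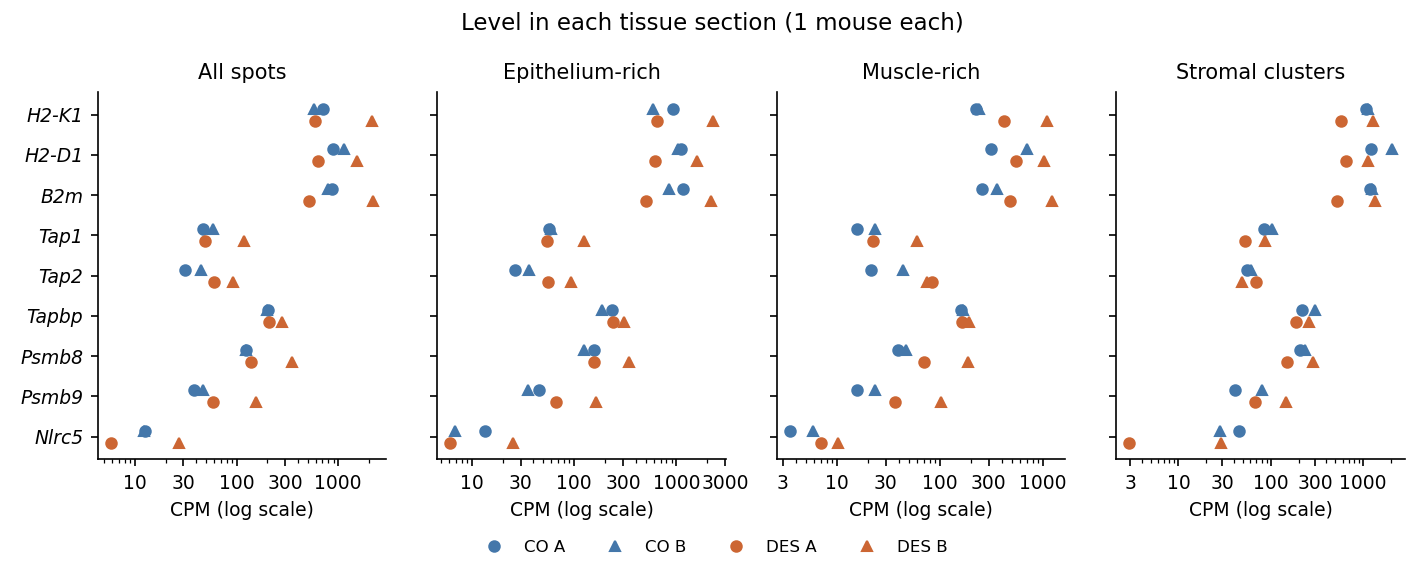
Level of each member in CPM (log scale) in the 4 sections, over all spots, epithelium-rich, muscle-rich and stromal spots. Circles are CO A and DES A and triangles CO B and DES B; the DES B triangle lies to the right of the DES A circle for all 9 members over all spots, and CO B lies close to CO A for most.

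Epithelium-rich spots, the 15% of each section with the highest epithelial marker score, gave values that also differed between the DES sections. H2-K1 was at 936 and 594 CPM in the CO sections and 650.1 and 2261 CPM in the DES sections, B2m at 1166, 856, 507 and 2185 CPM, and H2-D1 at 1105, 1044, 618 and 1592 CPM. DES A was below both CO sections for B2m and H2-D1 and DES B above both for all 3. Psmb9 was at 45.3 and 35.3 against 66.3 and 162 CPM and Tap2 at 26.8 and 35.9 against 55.3 and 93.1 CPM, and these groups did not overlap. Tapbp (233 and 188 against 243 and 309.5 CPM) and Psmb8 (155.0 and 124 against 155.2 and 347 CPM) did not overlap either, which made 4 of 9 members beside 48.2% of genes, near the background. The TMM factors, which CPM leave out, were 0.879 and 0.913 in CO and 1.14 and 1.10 in DES. The narrow gaps of Tapbp and Psmb8 thus need not hold after TMM scaling. Tap1 and Nlrc5 overlapped, with Tap1 at 57.2 and 60.2 against 54.4 and 125 CPM, and Nlrc5 at 13.5 and 6.93 against 6.19 and 25.3 CPM. No member was called, beside 7.48% of 11525 genes. The log2 fold changes of Psmb9 (1.19, SE 0.46) and Tap2 (0.94, SE 0.33) had edgeR adjusted p-values of 0.174 and 0.144, and these were the only members with an unadjusted p under 0.05. Epithelium-rich spots of the DES sections held more basal markers (9431 and 6575 against 4.24 and 184 CPM), plasma cell markers (1218 and 569 against 12.7 and 120.3 CPM), myeloid markers (1750.0 and 756 against 144 and 233 CPM) and lymphocyte markers (31.4 and 42.99 against 9.01 and 11.03 CPM). Muscle (539 and 792 against 271 and 242 CPM), mesothelial (32.7 and 39.2 against 8.48 and 11.7 CPM) and pericyte markers (90.2 and 93.1 against 51.1 and 57.3 CPM) were higher there too. Stromal (517 and 351 against 1033 and 729 CPM) and endothelial markers (10.6 and 10.5 against 17.0 and 22.7 CPM) were lower. The part of these cells was not tested.

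Muscle-rich spots were the 15% with the highest muscle marker score. H2-K1 was at 223 and 242 CPM in the CO sections and 424 and 1099 CPM in the DES sections, and B2m at 254, 358, 479.6 and 1235 CPM. Psmb8 was at 39.2 and 46.7 against 70.9 and 189.3 CPM, Psmb9 at 15.8 and 23.4 against 36.9 and 103 CPM, and Tap2 at 21.6 and 44.4 against 83.7 and 75.1 CPM. Both DES sections lay above both CO sections for these 5 of the 8 members tested, beside 36.4% of 9925 genes. These CPM too leave out the TMM factors, which were 0.941 and 0.911 in CO and 1.10 and 1.06 in DES. H2-D1 (312 and 705 against 555 and 1032 CPM), Tap1 (15.8 and 23.4 against 22.7 and 60.7 CPM) and Tapbp (159.7 and 168 against 165 and 192 CPM) overlapped, and Nlrc5 (5 to 10 UMIs a section) was too low to be tested.

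No member was called in muscle-rich spots by edgeR, beside 1.93% of genes. An unadjusted p under 0.05 was found for 5 members, a level for which no share over all genes is given. Their log2 fold changes were 1.65 (SE 0.50) for Psmb9, 1.51 (SE 0.42) for H2-K1, 1.40 (SE 0.44) for Psmb8, 1.27 (SE 0.44) for B2m and 1.04 (SE 0.37) for Tap2, with adjusted p-values from 0.133 to 0.230 by edgeR. Calls depended on single sections and settings. As higher in DES, 4 members were called without CO A (5.14% of genes), 4 without DES A (1.28%), 7 without CO B (6.96%), 4 with no filter on low counts (2.34%) and 1 (H2-K1) by DESeq2, but none without DES B. Muscle-rich spots of the DES sections carried fewer muscle markers (26388 and 21667 CPM against 50157 and 51357 CPM in CO A and CO B), more plasma cell markers (8071 and 16749 against 52.6 and 51.96 CPM) and more Cd74 (600.2 and 1499 against 125 and 260.4 CPM). They also carried more basal (1671 and 1745 against 1.75 and 8.17 CPM), myeloid (1002 and 1083 against 329 and 663 CPM), endothelial (197.2 and 197.5 against 46.2 and 65.4 CPM), epithelial (472 and 845 against 265.0 and 169.9 CPM), mesothelial (142 and 137 against 66.1 and 101.0 CPM) and lymphocyte markers (21.3 and 71.0 against 19.3 and 19.3 CPM) and fewer stromal markers (2252 and 1749 against 3018 and 3092 CPM), while pericyte markers overlapped. The part of these cells in the members' levels was not tested.

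In the stromal clusters of the study 8 of 9 members had values below 0 and none was called, beside 1.47% of 8914 genes. H2-K1 was at 1085 and 1132 CPM in the CO sections and 579 and 1290.4 CPM in the DES sections, and B2m at 1184, 1239, 524 and 1342 CPM, so that DES A was low and DES B above both CO sections. H2-D1 was at 1218 and 2030.2 against 649 and 1120.1 CPM, with both DES sections below both CO sections, as for 18.1% of genes (log2 fold change -0.90, SE 0.42, adjusted p = 0.417 by edgeR). Of the other members Tap1 was at 84.2 and 103 against 52.2 and 86.6 CPM, Tap2 at 55.5 and 61.8 against 69.9 and 49.1 CPM, Tapbp at 217 and 298 against 188 and 257 CPM and Psmb8 at 209.5 and 234 against 151 and 289 CPM. Psmb9 was at 41.2 and 81.3 against 68.0 and 144 CPM, and Nlrc5 at 44.8 and 28.2 against 2.95 CPM (3 UMIs) and 28.9 CPM (10 UMIs). Without DES A the values of H2-K1 (0.26), B2m (0.19), Tapbp (0.032) and Psmb8 (0.42) were above 0. With stromal spots chosen by marker score instead, the values of H2-K1 (0.40), B2m (0.24), Tap1 (0.13), Tap2 (0.30) and Psmb8 (0.29) were above 0. The members' median in the clusters was -0.26 on the log2 scale, against 0.0018 over all genes. No member had an unadjusted p under 0.05, and DESeq2 called none. DES stromal clusters held fewer stromal markers (2889.6 and 1923 against 5452 and 4056 CPM) and more plasma cell markers (7866 and 38368 against 14.3 and 2002 CPM), muscle markers (2705 and 8369 against 888 and 700.2 CPM) and basal markers (7058 and 1998 against 0 and 89.97 CPM). In DES B these clusters thus held more muscle than stromal markers, and the part of this in the members' levels was not tested.

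Within the CO sections, 6 of 9 members were called higher in epithelium-rich than in muscle-rich spots and none lower, beside 25.9% of 12043 genes called higher and 25.6% called lower. B2m had the largest log2 fold change at 1.54 (SE 0.28, adjusted p = 0.00128 by edgeR), followed by Psmb8 at 1.51 (SE 0.23), H2-K1 at 1.49 (SE 0.25), Tap1 at 1.40 (SE 0.24), H2-D1 at 1.00 (SE 0.30) and Psmb9 at 0.85 (SE 0.28, adjusted p = 0.0272 by edgeR). Tap2 (-0.22), Tapbp (0.17) and Nlrc5 (0.90) did not pass. H2-D1 and Psmb9 did not pass without CO A, where their values were 0.32 and 0.34, and Nlrc5 passed without CO B at 1.83. Psmb9 also did not pass by DESeq2 (0.84, adjusted p = 0.113 by DESeq2) or with the top 25% of spots (0.55, adjusted p = 0.0841 by edgeR).

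In DES sections 2 of 9 members were called higher in epithelium-rich spots, beside 17.3% of genes, so the share was near the background. These were Tap1 at 0.90 (SE 0.25, adjusted p = 0.0178 by edgeR) and Psmb8 at 0.76 (SE 0.22, adjusted p = 0.0228 by edgeR), and H2-K1 was at 0.61 (adjusted p = 0.0749), Psmb9 at 0.51, B2m at 0.24 and H2-D1 at 0.17. Neither was called without DES A, without DES B or by DESeq2, and 5 members were without CO A (20.7% of genes called higher) or without CO B (21.6%). The difference between DES and CO in this contrast was called for 0 of 9 members, beside 5.47% of genes. It was -1.30 (SE 0.39) for B2m with an edgeR adjusted p of 0.0934, -0.88 (SE 0.34) for H2-K1 and -0.74 (SE 0.32) for Psmb8, and these 3 had an unadjusted p under 0.05. DESeq2 called none, while without CO B 4 members were called lower (H2-K1, H2-D1, B2m and Psmb8, beside 6.6% of genes) and without DES B only B2m (-1.66, beside 1.13%).

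Among the other genes of the pathway, only Stat2, which carries type I interferon signals, was called between DES and CO. It was 1 of 17 regulators tested over all spots and in epithelium-rich spots and 1 of 15 in stromal clusters, beside 5.3%, 7.48% and 1.47% of all genes, so the share of regulators over all spots and in epithelium-rich spots was near the background. It was lower in DES over all spots (log2 fold change -1.47, SE 0.18, adjusted p = 0.0262 by edgeR), in stromal clusters (-2.45, SE 0.36, adjusted p = 0.0275 by edgeR) and in epithelium-rich spots (-1.69, SE 0.20, adjusted p = 0.0167 by edgeR). Both DES sections lay below both CO sections in all 3, but no call held without DES A or without DES B. With stromal spots chosen by marker score instead, Stat2 was at -1.51 and was not called (adjusted p = 0.0705 by edgeR). None of the 8 loading genes, 3 standard proteasome subunits, 13 other class I genes, 7 interferon receptors and kinases, 6 interferon ligands or 8 class I receptors that could be tested was called in any region, and of the class I genes 6 to 9 had the counts for a test, of the ligands at most 1 and of the class I receptors at most 2.

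In the CO sections these lists also differed between epithelium-rich and muscle-rich spots. Beside the 25.9% of all genes called higher and 25.6% lower, 5 of 8 loading genes were called higher in epithelium-rich spots, led by Pdia3 (1.56), Tapbpl (1.42), Psme1 (1.15) and Psmb10 (0.97), and none lower. Of the 17 regulators 9 were higher and 3 lower, with Irf9 at 3.08, Irf8 at -1.95, Socs1 at -1.91 and Irf2 at 1.73. Of 7 interferon receptors and kinases 4 were higher, namely Jak2 (2.48), Ifngr2 (2.27), Ifngr1 (0.99) and Tyk2 (0.91). Ifne was higher at 5.85 and was the only ligand tested, Psmb6 was the only standard subunit called (-0.82), and of 9 other class I genes tested Fcgrt (-3.28) and H2-T22 (-1.0005) were lower and H2-Q4 (2.40) higher. Pirb, a class I receptor of myeloid cells, was lower (-1.36). In the DES sections, beside 17.3% of all genes called higher and 17.6% lower, 2 of 8 loading genes (Pdia3 at 1.22 and Psme2 at 0.61), 4 of 17 regulators and 3 of 7 receptors and kinases were higher, 4 regulators and Fcgrt were lower and Ifne was not called, with the shares of loading genes and regulators near the background.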

How the data were processed

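Per the labels and the study's methods, the authors made single-cell counts with Cell Ranger 3.0.1 on mm10, after bcl2fastq 2.20.0.422, removed doublets, and made spot counts with Space Ranger 1.2.2. The deposited values were raw UMI counts, and cell types, clusters and spots were those the authors deposited. Counts of a group of cells or spots were summed and scaled to CPM, and the median cell held 6779 UMIs in CO and 10153.5 in DES. Section sums were tested in edgeR 4.0.16 (R 4.3.3) with TMM scaling, filterByExpr, quasi-likelihood tests and Benjamini-Hochberg adjustment, with section as a block between spot types. With 2 sections a group, p-values between DES and CO set the difference of the groups against the spread between these sections. Those between spot types, and for the difference, set the gap, or the difference of gaps, against its variation from section to section. In each fit edgeR also pooled information on the spread across genes. No share over all genes is given for unadjusted p-values, so counts of members by them are not read as a result about the members. DESeq2 1.42.0, other filters, spot cutoffs, scalings, a replicate block and leaving out each section were alternatives. Steps were tested on simulated data. Python 3.11.15 with scipy 1.17.1 gave intervals, which cover counting error only. All 9 members are named, and of each list of pathway genes at most 4 that passed a section test, by largest fold change; pathway genes named from single cells and Cd74 were chosen after their values were seen. Members and lists were chosen with earlier results of these data known. Cells with no cell type were left out of the comparisons.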

Additional observations from a re-analysis of the deposited data

Results flagged for a closer look

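Cells with no deposited cell type (20134 in CO and 6611 in DES) entered no comparison, and 8 members were higher there in the DES library. H2-K1 was at 678.4 CPM in DES against 376 CPM in CO, H2-D1 at 698 against 429 CPM and B2m at 579.5 against 303 CPM. Psmb8 was at 125.8 against 56.5 CPM, Psmb9 at 45.9 against 25.4 CPM, Tap1 at 21.1 against 11.1 CPM, Tap2 at 20.9 against 16.8 CPM and Nlrc5 at 3.31 against 1.27 CPM. Tapbp, at 127 against 145 CPM, was not higher. The share of all genes higher in DES was not computed for these cells, so the count of 8 is not read as a result about the members. These cells were unlike mixtures, with myeloid markers at 717 CPM in DES against 88.2 CPM in CO, lymphocyte markers at 63.7 against 29.1 CPM, basal markers at 349 against 3.82 CPM, stromal markers at 3522 against 6013 CPM and plasma cell markers at 86.5 against 635.0 CPM, and the part of this in the differences was not tested. With 1 library per condition these differences were not tested, and groups of 2 sections were too small to look for a section far from the rest.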

How the results depend on the processing

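Most results kept direction and side of the threshold: 653 alternative values did, 37 gained and 18 lost a call, 21 moved and 54 changed sign. Leaving out 1 section called 3 to 2819 genes over all spots between DES and CO, 40 to 357 genes in stromal clusters, 0 to 2575 genes in epithelium-rich spots, 0 to 7 members in muscle-rich spots, 114 to 1389 genes in muscle-rich spots, 0 to 5 members between spot types in DES, 2611 to 5475 genes between spot types in DES, 0 to 4 members for the difference between them and 460 to 1523 genes for the difference between them. Log2 values over all spots between DES and CO ran over H2-K1 -0.39 to 1.53, H2-D1 -0.91 to 0.41, B2m -0.96 to 1.21, Tap1 -0.34 to 1.00, Tapbp -0.19 to 0.30, Psmb8 -0.083 to 1.32, Nlrc5 -1.34 to 0.94 and Stat2 -1.61 to -1.37. Log2 values in stromal clusters ran over H2-K1 -1.07 to 0.26, B2m -1.35 to 0.19, Tap2 -0.22 to 0.11, Tapbp -0.59 to 0.032, Psmb8 -0.70 to 0.42, Psmb9 -0.013 to 1.27 and Stat2 -2.59 to -2.32. Log2 values in epithelium-rich spots ran over H2-K1 -0.58 to 1.28, H2-D1 -1.14 to 0.29, B2m -1.34 to 0.83, Tap1 -0.45 to 0.81, Tapbp -0.14 to 0.27, Psmb8 -0.19 to 1.03, Nlrc5 -1.07 to 1.01 and Stat2 -1.75 to -1.61. Log2 values in muscle-rich spots ran over H2-K1 0.63 to 2.04, H2-D1 -0.12 to 1.15, B2m 0.40 to 1.80, Tap1 -0.029 to 1.42, Tap2 0.57 to 1.67, Tapbp -0.23 to 0.032, Psmb8 0.48 to 1.93 and Psmb9 0.67 to 2.18. Log2 values between spot types in CO ran over H2-D1 0.32 to 1.73, Tap2 -0.56 to 0.21, Tapbp -0.085 to 0.45, Psmb9 0.34 to 1.42 and Nlrc5 -0.0037 to 1.83. Log2 values between spot types in DES ran over H2-K1 0.40 to 0.81, H2-D1 -0.060 to 0.39, B2m -0.14 to 0.59, Tap1 0.81 to 1.04, Tap2 -0.81 to 0.075, Tapbp 0.34 to 0.45, Psmb8 0.64 to 0.91, Psmb9 0.42 to 0.63 and Nlrc5 -0.41 to 1.06. Log2 values for the difference between them ran over H2-K1 -1.39 to -0.42, H2-D1 -1.59 to -0.13, B2m -1.89 to -0.75, Tap2 -0.59 to 0.30, Tapbp -0.082 to 0.50, Psmb8 -1.17 to -0.41, Psmb9 -0.96 to 0.16, Nlrc5 -1.29 to 0.63 and Stat2 -1.70 to -0.73. With 1 section left in a group, that section is assumed to vary like the others.

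DESeq2 called 1791 genes over all spots (747 by edgeR), 2696 between spot types in DES with 0 members and 353 for the difference (659). In muscle-rich spots it called 263 of 9925 genes with 1 member. With no filter 714 genes were called in stromal clusters (131) and 1629 in epithelium-rich spots (862). In muscle-rich spots 734 of 16482 genes were then called (192) with 4 members. For the difference 1338 of 18341 genes were then called with 2 members, H2-K1 (-0.89) and B2m (-1.30). With the top 10% of spots 60 genes were called in muscle-rich spots and 360 for the difference, where Nlrc5 was at 0.22. With the top 25% these were 707 and 1404, and Tap2 for the difference was at 0.096. Between spot types in DES the top 25% called 4223 of 12956 genes with 1 member, and Nlrc5 was at -0.11. Stromal spots by marker score gave 0.40 for H2-K1, 0.24 for B2m, 0.13 for Tap1, 0.30 for Tap2, 0.29 for Psmb8 and -1.51 for Stat2. The epithelial median ratio was 1.895 as a mean per cell and 1.88 without the 20 most abundant genes, and the mesothelial one 1.65 as a mean per cell. The cause of these shifts was not tested.

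Sections shared only a number, and same-numbered sections did not deviate together (correlations -0.0384 to 0.0898). With a replicate block no member was called between DES and CO, 453 genes were called in stromal clusters, and the values of Nlrc5 over all spots (-0.14) and B2m in epithelium-rich spots (-0.24) turned.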
